A study of Caenorhabditis elegans with 4 samples.

Results

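Chromosome III carried 221 of the 1539 GEI-11 binding sites that ChIP-seq, the sequencing of immunoprecipitated chromatin, found in Caenorhabditis elegans embryos. These 221 are all records on chromosome III in the list that the authors combined from 2 ChIP replicates, with positions on genome build WS220. Embryos came from hermaphrodites of strain OP179, which carries the unc-119(ed3) allele on chromosome III and the transgene wgIs179. This transgene holds unc-119(+) beside gei-11 fused to TY1, EGFP and 3xFLAG tags. Every sample, the 2 ChIP samples and the 2 input DNA samples alike, was from this strain, so the allele and the tagged transgene were shared by all of them. The transgene was brought in by bombardment as an extra copy in 1 strain, and no sample from an untagged strain was analysed here. Worms were raised at 20 °C and fixed in 2% formaldehyde, 10% of each lysate was put aside as input, and antibodies against GFP were used on the remainder. The replicates carry numbers in the labels, but whether they were separate cultures is not said there, so agreement between them may be technical.

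GEI-11, also named SNPC-4, belongs to the Myb-domain proteins and works within SNAPc, the complex that activates small nuclear RNA genes. SNAPc sits at a conserved element upstream of small nuclear RNA genes and helps RNA polymerase II or III start transcription there. In worms the protein is also known to occupy the piRNA gene clusters of the germ line, which lie mainly on chromosome IV, and the genes of the spliced-leader RNAs. Chromosome III lies outside those piRNA clusters.

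The 221 sites were short and scattered, and covered 0.589% of the chromosome. Most of them, 180 (81.4%), had the same width of 400 bp, 35 were narrower, down to 100 bp, and 6 were wider, up to 561 bp. The wider sites made up 2.71% of the sites on III (6 of 221) and 3.19% of those on the other chromosomes (42 of 1318), with 3.12% over the whole list. That difference of -0.47 percentage points (95% interval -2.30 to 2.72) did not pass the test (two-sided Fisher's exact test, Benjamini-Hochberg adjusted p = 0.923 over the 5 comparisons of III with the other chromosomes). The score of each site is the authors' own value, on a scale that the files do not name, and it ran from 1.73 to 3.24 on III. The highest value was shared by 114 sites on III (51.6%, 44.8 to 58.3%) and by 742 elsewhere (56.3%), against 55.6% over the whole list. This difference of -4.71 points (95% interval -11.8 to 2.33) did not pass the test either (Fisher's exact, adjusted p = 0.534). Sites were ranked by score, and tied sites by the peak number that the authors gave them.

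Nearly all sites wider or narrower than usual were well ranked on III. All 6 wider sites, 2 of which are entries of the same interval, and 34 of the 35 narrower ones were among the 769 highest-ranked combined sites, which numbered 102 on III. The usual width was still the commonest among these 102, at 62 sites. The narrower sites had a median rank of 192 in the peak list of replicate 1 and 214 in that of replicate 2. The wider sites had median ranks of 20.5 and 19. Sites of the usual width lay far lower, with medians of 1079 in replicate 1 and 1049.5 in replicate 2. All of these medians but the 1049.5 of replicate 2 fall among peaks tied at the highest score of their list. Those ties number 1154 in replicate 1 and 681 in replicate 2 and are ordered by peak number alone. On the other chromosomes, too, all 42 wider and 246 of the 250 narrower sites were among the 769.

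The highest-ranked site on III lay in the right part of the chromosome, at 12250070 to 12250593. It was 524 bp wide and ranked 3 in the combined list, 4 in replicate 1 and 2 in replicate 2. The next, at 10989298 to 10989857, ranked 10 in the combined list, 8 in replicate 1 and 12 in replicate 2. These were the only sites on III among the 25 highest-ranked of the genome. The third was at 9717034 to 9717477, also in the right part, and ranked 31, with replicate ranks of 34 and 26. The fourth was the widest of the chromosome (561 bp), at 5080690 to 5081250 in the middle part, and ranked 38, with replicate ranks of 33 and 44. In all, 12 sites on III were among the 100 highest-ranked of the combined list, against 13 (I) to 22 (II) on each other chromosome. Of the 12 on III, 2 lay in the left part, 5 in the middle and 5 in the right. All 12 were also among the top 100 peaks of both replicates, the lowest-placed at rank 72 in replicate 1 and rank 81 in replicate 2. Their order was therefore nearly the same in the combined list and in each library. All 12 held the highest score in every list, so this order rests on the peak numbers alone.

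Places 5 to 7 on III were held by 3 strong sites side by side. They lay at 7140367 to 7140736, at 7141125 to 7141455 and at 7141983 to 7142349, with combined ranks of 44, 56 and 51. All 3 were a little narrower than usual, at 370, 331 and 367 bp, and together they spanned 1.983 kb. Their midpoints were 738.5 and 876 bp apart. The ranks in replicate 1 were 43, 53 and 52, and those in replicate 2 were 43, 62 and 50. The neighbours were thus close in rank in both. All 3 held the highest score in every list, so these ranks follow the peak numbers alone. Only 1 other run of sites with gaps under 5 kb in the genome had all its members among the 100 highest-ranked sites, a run of 3 on X at 16564447 to 16566623 with ranks of 53 to 82. Both runs were singled out after their values were seen.

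Places 8 to 10 on III went to sites at 11090248 to 11090691, at 4413910 to 4414301 and at 11463720 to 11464077, with combined ranks of 58, 62 and 68. Of the 10 leading sites, 5 lay in the right part, and 4 in the middle. The site at 4413910 to 4414301 and the one at 10989298 to 10989857 were each entered more than once in the combined list, with identical bounds. The second entries ranked 111 and 537. At 4413910 to 4414301 each replicate list held 2 overlapping peaks, ranked 65 and 143 in replicate 1 and 61 and 92 in replicate 2. At 10989298 to 10989857 replicate 1 listed the same interval at ranks 8 and 307, and replicate 2 listed nearly the same interval at ranks 12 and 80. The 221 entries therefore hold 219 distinct intervals. Joining entries that overlap or touch leaves 213 separate regions on the chromosome.

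Sites were spread along the whole of chromosome III, but unevenly. The density was 16.0 sites per Mb, within the range of the other chromosomes, which ran from 11.3 per Mb on V to 19.1 per Mb on X. The 27 full windows of 500 kb held 8.04 sites on average (SD 4.02) with a median of 9. The fullest window, at 11 to 11.5 Mb, held 17 sites, and its neighbour at 10.5 to 11 Mb held 15. The stretch from 10.5 to 11.5 Mb thus carried 32 sites, more than any other pair of neighbouring windows on III. The next fullest windows, at 5.5 to 6 Mb and at 7 to 7.5 Mb, held 12 sites each.

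Of the 17 sites in the fullest window, 11 were among the 769 highest-ranked of the combined list, against 102 of all 221 on III, and 12 had a top peak in both replicates. A few less full windows had as large a share of such sites or a larger one, with 7 of 10 at 9 to 9.5 Mb, 4 of 5 at 2.5 to 3 Mb and 3 of 4 at 9.5 to 10 Mb. In the window at 10.5 to 11 Mb only 5 of the 15 were among those 769. The replicates taken alone gave the window at 11 to 11.5 Mb 15 and 20 of their top 1539 peaks, and the window at 10.5 to 11 Mb 13 and 10.

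**Figure D1:**
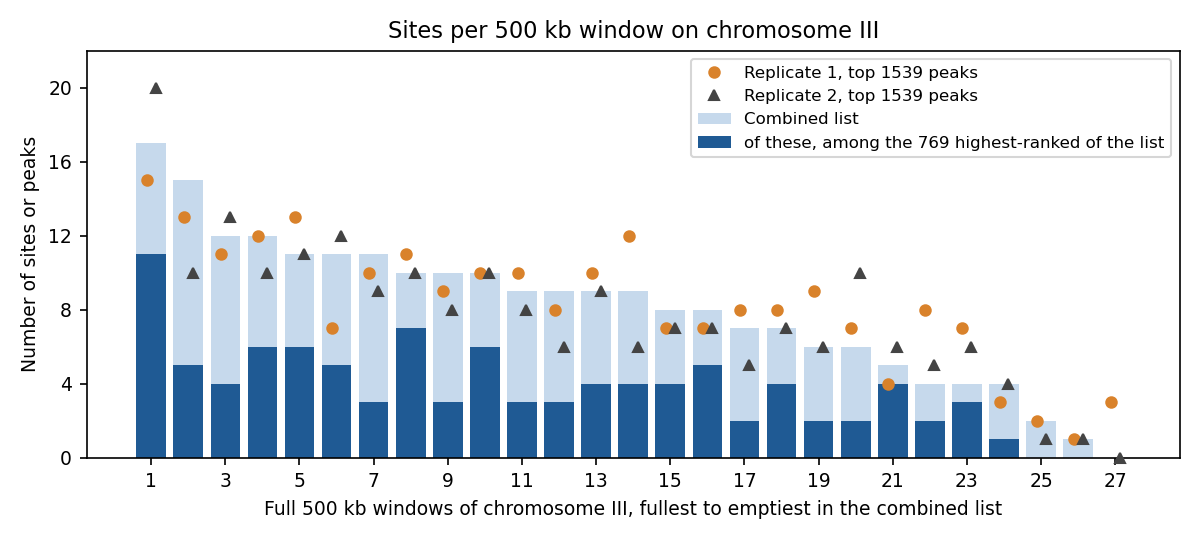
Number of GEI-11 sites (vertical axis) in each of the 27 full 500 kb windows of chromosome III, ordered from the fullest to the emptiest in the combined list (horizontal axis). Pale bars are all combined sites, dark bars those among the 769 highest-ranked, and circles and triangles the top 1539 peaks of replicates 1 and 2; the fullest window holds 17 combined sites and the emptiest 0.

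At the other end, the window at 2 to 2.5 Mb held none of the 221 sites, which allows a share of up to 1.36% of the sites on III by a limit of 3 counts. Among the top 1539 peaks, replicate 1 placed 3 there and replicate 2 placed 0. The windows at 1 to 1.5 Mb and at 6.5 to 7 Mb held 1 and 2 sites, and none of these 3 was among the 769 highest-ranked. Window by window, the replicates differed by 2 peaks at the median and by 6 at most. Across the 27 windows the Spearman correlation of their counts was 0.70, a description of windows that share libraries with the combined list.

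The longest gap between neighbouring midpoints was 646.84 kb, between the sites that end at 1950623 and begin at 2597064. The next were 538.4 kb, after the site ending at 1080952, and 459.7 kb, after the site ending at 9765702. The first and second of these covered all or most of the windows at 2 to 2.5 and 1 to 1.5 Mb, while the third ran across the windows at 9.5 to 10 and 10 to 10.5 Mb, which held 4 and 6 sites. The gap that filled most of the window at 6.5 to 7 Mb was the fourth longest, at 414.4 kb. These stretches were not empty in the full replicate lists, which hold many weak peaks. Inside the longest gap replicate 1 listed 184 peaks and replicate 2 listed 204, but the best of them ranked 1273 and 1346. Of the other chromosomes, only X had a longer gap (709 kb).

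Along the chromosome the right part was the fullest, as it also was on the other chromosomes together (571 of 1318 sites, 43.3%, or 19.8 per Mb). The right share ran from 33.9% on V to 54.7% on X. On I the left part was the fullest (82 sites, with 78 in the right), and on V the middle (83, with 80 in the right). Of 3 equal parts of III, the right held 88 sites (39.8%), the middle 73 (33.0%) and the left 60 (27.1%), or 19.2, 15.9 and 13.1 sites per Mb. The top 1539 peaks of the single replicates gave the same order on III, with 86, 82 and 63 peaks in replicate 1 and 87, 70 and 53 in replicate 2, right to left. The 10000 weakest peaks of each list did not follow it. In replicate 1 the weakest peaks on III fell 33.8% to the right, 32.2% to the middle and 34.0% to the left (n = 1361), and in replicate 2 they fell 35.4%, 29.7% and 34.9% (n = 1436). The slope from right to left was seen in the strong peaks and not in the weak ones of the same libraries, a contrast that was not tested.

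The middle part of III held close to an even share of the sites. That share was 33.0% (73 of 221, 95% exact interval 26.9 to 39.7%), against 26.4% on the other chromosomes (348 of 1318, 24.0 to 28.9%) and 27.4% over the whole list. The difference of 6.63 percentage points (95% interval 0.27 to 13.5) did not pass the test after adjustment (two-sided Fisher's exact p = 0.0501, adjusted p = 0.25). Against the other autosomes, which held 30.2% (296 of 980) of their sites in the middle, the difference was 2.83 points (Fisher's exact, adjusted p = 0.923). Among single chromosomes, V held 35.2% of its sites there, more than III, and X held 15.4%. The middle of III had 15.9 sites per Mb, and the middles of the other chromosomes had 8.81 (X) to 13.9 (I). Fisher's test takes each site as an independent draw, and sites that lie side by side or overlap break that assumption.

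**Figure D2:**
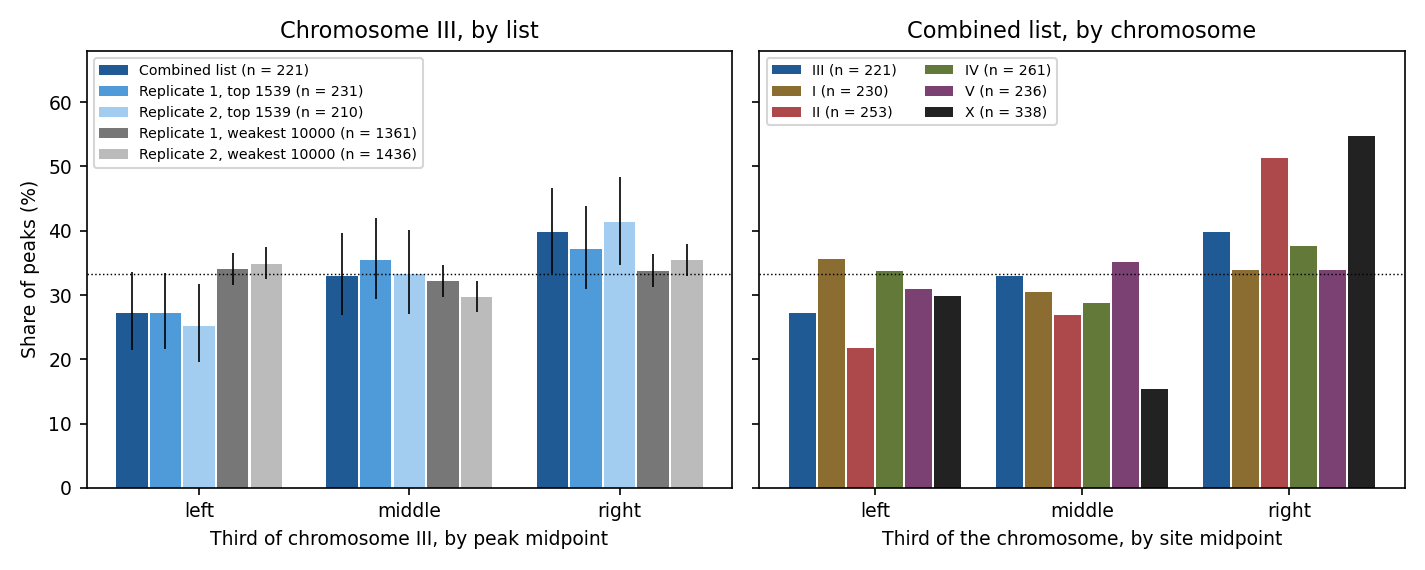
Share of peaks (vertical axis, %) in the left, middle and right of 3 equal parts. The first panel shows chromosome III in the combined list (27.1, 33.0 and 39.8%), the top 1539 and the weakest 10000 peaks of each replicate, with exact 95% intervals as bars; the second shows the combined list on III and on each other chromosome, and the dotted line marks an even split.

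Many sites on III had a close neighbour. Of the 220 gaps between neighbouring midpoints, 36 (16.4%, 95% exact interval 11.7 to 21.9%) were under 5 kb, against 220 of 1313 (16.8%) on the other chromosomes and 16.7% over all. The difference of -0.39 points (95% interval -5.19 to 5.39) did not pass the test (Fisher's exact, adjusted p = 0.923). The median gap on III was 35.1 kb, with quartiles of 11.4 and 82.8 kb. Gaps under 1 kb numbered 13 on III (5.91%) and 61 elsewhere (4.65%). Of these 13, 8 lay between entries that overlap, touch or repeat each other.

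Gaps under 5 kb joined 63 sites (28.5%) into 27 clusters and left 158 sites alone. On the other chromosomes the share of sites in clusters ran from 26.7% on V to 33.2% on II. The number of clusters on III was 17 with a limit of 2 kb, and also 17 when sites within 1 kb were first merged. There were 21 pairs, 3 clusters of 3 sites and 3 clusters of 4, the largest on the chromosome. Of the 3 clusters of 4, the one at 11371150 to 11374270 was the most compact, with 3.12 kb from end to end. Its ranks ran from 272 to 1431, and 3 of its sites had a top peak in both replicates. Of these 3, the entries at 11372351 to 11372494 and at 11372453 to 11372852 overlap and rest on the same peak of each replicate. The other clusters of 4 hold no overlapping entries. The cluster at 9443357 to 9449485 spanned 6.13 kb, with ranks of 254 to 1435, and again 3 of its sites had a top peak in both. The cluster at 1921128 to 1926793 was weaker, with ranks of 592 to 1036 and only 1 site with a top peak in both replicates. Every site of these 3 clusters had some peak in each full replicate list.

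Clustered sites on III leaned to the right part and to higher ranks. Of the 63, 37 lay in the right part, 11 in the middle and 15 in the left. The 158 sites that stood alone were spread as 51, 62 and 45 over the same parts. The middle part thus held more sites standing alone than either side. The highest score was reached by 42 of the clustered sites (66.7%) and 72 of those standing alone (45.6%), and the median combined rank was 700 and 919.5. These values are a description, since overlapping entries share their reads.

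**Figure D3:**
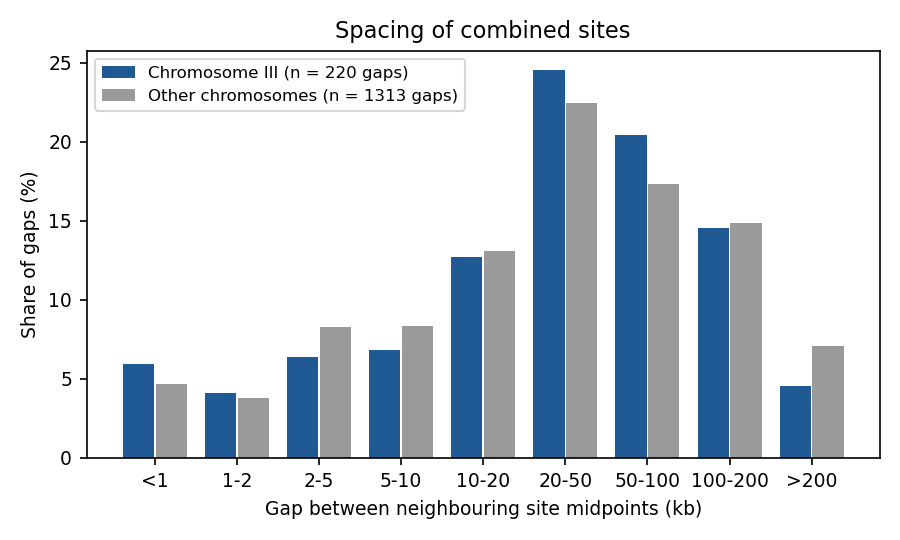
Share of gaps (vertical axis, %) between neighbouring site midpoints by gap length in kb (horizontal axis), on chromosome III (220 gaps) and on the other chromosomes (1313 gaps). Gaps of 20 to 50 kb are the commonest on both, and 5.91% of the gaps on III are under 1 kb.

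Nearly every site on III was overlapped by some peak in each full replicate list, weak peaks included. On III these lists hold 4343 peaks in replicate 1 and 4527 in replicate 2. How many sites would be overlapped by peaks placed at random was not computed. In the full replicate lists, which hold 30000 peaks each, 221 of the 221 sites were overlapped by at least 1 bp in replicate 1 (99.6% over the whole combined list) and 219 in replicate 2 (99.5% over the whole list). When only the top 1539 peaks of a replicate were used, as many as the combined list holds, 178 sites on III (80.5%) were found in replicate 1 and 161 (72.9%) in replicate 2. Over the whole list these shares were 77.6% and 77.1%. Both replicates held a top peak for 126 sites on III (57.0%, 95% exact interval 50.2 to 63.6%) and for 773 of the 1318 on the other chromosomes (58.6%), or 58.4% over all. The difference of -1.64 points (95% interval -8.73 to 5.26) did not pass the test (Fisher's exact, adjusted p = 0.923). The lists all come from the same 2 libraries, so presence in a replicate is no independent check of a site.

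Recovery on III rose steeply with the number of peaks considered. The top 500 peaks of both replicates shared 43 of the 221 sites (19.5%), the top 1000 shared 79 (35.7%), the top 3000 shared 184 (83.3%) and the top 5000 shared 202 (91.4%). On the other chromosomes these shares were 24.4%, 41.2%, 83.4% and 91.1%. Where a site was found, its place was close. The midpoint of the replicate peak lay 13 bp from that of the site at the median in replicate 1 and 10 bp in replicate 2. The 221 sites rested on 214 distinct peaks in replicate 1, and 219 of them on 211 in replicate 2.

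**Figure D4:**
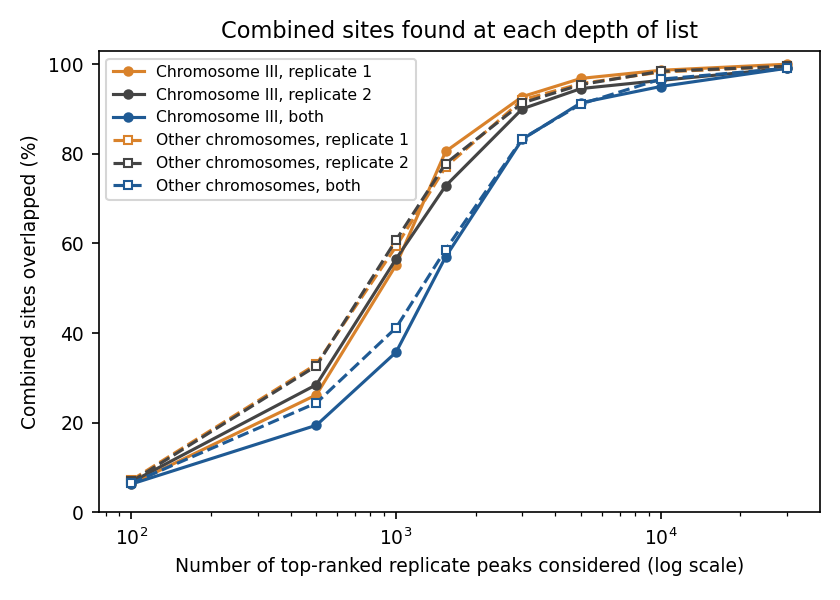
Share of combined sites (vertical axis, %) overlapped by the top-ranked peaks of replicate 1, replicate 2 or both, against the number of replicate peaks considered (horizontal axis, log scale). Filled symbols and solid lines are chromosome III and open symbols and dashed lines the other chromosomes; at 1539 peaks both replicates hold 57.0% of the sites on III and 58.6% of the others.

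The score divided the sites on III into a shared set and a set that was strong in only 1 library. Of the 114 sites at the highest score, 101 (88.6%) had a top peak in both replicates, 9 in replicate 1 only, 4 in replicate 2 only and 0 in neither. Of the 107 sites below it, 25 (23.4%) had a top peak in both, 43 in replicate 1 only, 31 in replicate 2 only and 8 in neither. Most sites below the highest score, 74 of 107 (69.2%), were therefore backed by a top peak of a single replicate. On the other chromosomes this was so for 409 of 576 (71.0%). There, 88.3% of the sites at the highest score and 20.5% of those below it had a top peak in both.

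Replicate ranks were also compared within these score classes. Across the 219 sites on III with a peak in both lists the Spearman correlation of replicate ranks was 0.43. It was 0.16 when tied scores took their mean rank, and 141 of the 221 sites were tied at the highest score of replicate 1 and 93 at that of replicate 2. With ties in the order of peak numbers, across the 126 with a top peak in both it was 0.70. Among the 114 sites at the highest score it was 0.56. Among the 105 sites below it that had a peak in both lists it was -0.54. These 105 were set apart by their combined score, from the same libraries, so the sign cannot be read apart from that selection. The value was negative on every other chromosome too (-0.63 on IV to -0.56 on II), under the same selection. These correlations are across sites that the authors selected from the same libraries, so they describe the list and carry no p-value.

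**Figure D5:**
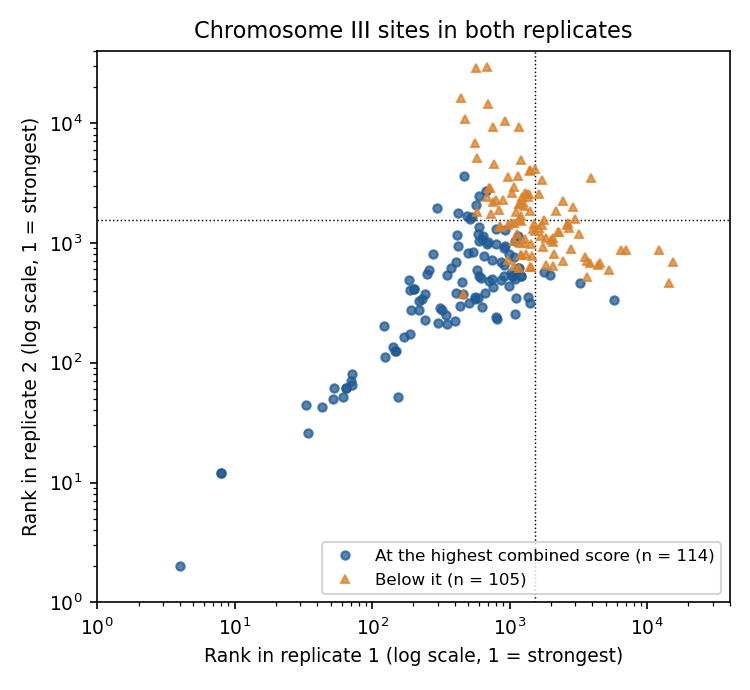
Rank in replicate 2 (vertical axis) against rank in replicate 1 (horizontal axis) of the 219 chromosome III sites with a peak in both lists, on log scales. Circles are the 114 sites at the highest combined score and triangles the 105 below it, and dotted lines mark rank 1539; circles follow the diagonal, and triangles spread along both dotted lines.

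At 12 sites on III the replicate ranks differed by more than 10 times, 8 with the better rank in replicate 1 and 4 in replicate 2. All but 1 of the 12 were below the highest score. The site at 5603496 to 5603895 ranked 568 in replicate 1 and 28445 in replicate 2. The site at 2913002 to 2913401 was the reverse, with ranks of 14424 and 458. These sites were picked after their values were seen. The 2 sites with no peak at all in replicate 2 were at 10536205 to 10536604 and at 12874605 to 12875004, both in the right part. They ranked 513 and 681 in replicate 1, and 996 and 1506 in the combined list. Of the replicate lists, only that of replicate 1 holds a peak at these sites. What replicate 2 added to their combined entries is not known, since the way the lists were combined was not given.

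The combined list also left out some well-ranked peaks, on III as elsewhere. Of the top 1539 peaks of replicate 1, 231 lay on III, and 51 of them (22.1%) overlapped no combined site, against 269 of 1286 (20.9%) on the other chromosomes and 21.1% over all. Of those of replicate 2, 210 lay on III and again 51 (24.3%) overlapped none, against 275 of 1308 (21.0%) on the other chromosomes and 21.5% over all. Both shares on III were near those of the whole lists. Somewhere in the full list of the opposite replicate, 33 of the 51 from replicate 1 and 40 of the 51 from replicate 2 had an overlapping peak, which ranked in the top 1539 for 1 of each. The best-ranked was at 6431706 to 6432101, rank 484 in replicate 1, with no peak in replicate 2. On the other side it was the peak at 7815460 to 7815855, rank 495 in replicate 2, which ranked 1133 in replicate 1 and whose left edge lies just beyond the combined site at 7814860 to 7815259. The other named peaks of replicate 1, at 623809 to 624204, 434362 to 434757, 6453628 to 6454023 and 13780065 to 13780460, ranked 626 to 670. Those of replicate 2, at 3505177 to 3505572, 6420603 to 6420998, 793614 to 794009 and 11465264 to 11465659, ranked 708 to 953. Apart from the peak at 7815460, the 5 best of each replicate had either no counterpart or one ranked 8048 or worse in the other list.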

How the data were processed

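Peaks were called with SPP and passed through IDR, which keeps peaks of reproducible rank, per the file headers and the records' source field; positions are on WormBase WS220. Each record gives the authors' deposited score, whose scale is not named. The aligner, tool versions, thresholds, use of input and the way the lists were combined were not given in the sources used here. With read depth unknown, intervals reflect counting error alone.

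Ranks followed the score, then the peak number. Below the tied scores that number followed the score with a Spearman correlation of 1.00 in each replicate list and 0.95 in the combined list. Replicate lists were used to the top 1539 peaks; overlap meant at least 1 bp, and the best-ranked overlapping peak was taken. The outermost replicate peak set the length of a chromosome (13.8 Mb for III). Windows, parts and gaps used midpoints. Shares have exact Clopper-Pearson 95% intervals, differences Newcombe 95% intervals, and the 5 comparisons two-sided Fisher's exact tests at an adjusted threshold of 0.05. Functions were checked on simulated data. Python 3.11.15, numpy 2.4.6, pandas 2.3.3, scipy 1.17.1, statsmodels 0.14.6 and matplotlib 3.10.9 were used.

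Sites named were the 10 highest-ranked, fullest and emptiest windows, longest gaps, clusters of at least 4, repeated intervals, sites missing from a replicate and the 5 best replicate peaks without a site. The members and these rules were chosen with earlier results of these data known. Alternatives included a stricter list, merging, other overlaps and gap limits, and each replicate alone. Peaks were not assigned to genes, since the gene table at hand is of another build (WBcel235).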

Additional observations from a re-analysis of the deposited data

How the results depend on the processing

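None of the 5 comparisons of III with the other chromosomes passed the adjusted threshold in the main setting or in any of 29 alternatives. The middle share kept its direction throughout, at 31.4 to 35.5% (33.3 to 35.5% in the single replicates). Differences near 0 changed sign, none of them called. Gaps under 5 kb on III exceeded those elsewhere among the 769 highest-ranked sites (13.9% against 12.2%), in replicate 1 alone (18.3%, with 15.3% in replicate 2 alone) and, as gaps under 2 kb, by 10% against 8.45%. Presence in the top of both replicates did so among the 769 (92.2% against 91.6%) and under 50% reciprocal overlap (47.1% against 46.6%); presence in replicate 1 alone was 80.5%, above the 77.1% elsewhere, and in replicate 2 alone 72.9%, below the 77.8% elsewhere. Merging within 1 kb made wide regions as common on III (7.80%) as elsewhere (7.78%), since merged regions are wider by construction. The 27 clusters became 17 with a limit of 2 kb and 17 after merging. The rank correlation of 0.43 became 0.30 under reciprocal overlap, 0.70 for sites with a top peak in both lists and 0.16 with ties at their mean rank, which discards the order of tied peaks. The fullest window held 15 to 20 peaks in the single replicates. Counting repeated intervals once, chosen after seeing the data, left all 6 results in place. The share at the highest score has no value among the 769, all of which share that score. No paired analysis was possible because no peak list of the input DNA was analysed here. Read depth is unknown, so which sites it limits cannot be said.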

Other observations

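The gene table of assembly WBcel235 was used only to count the genes of each class on a chromosome. Chromosome III holds 64 of the 612 tRNA genes on the autosomes and X (10.5%), 13 of 129 snRNA genes (10.1%), 54 of 346 snoRNA genes (15.6%) and 2642 of 19971 protein-coding genes (13.2%). It holds 14.4% of the combined GEI-11 sites on 13.7% of the span. Only 78 of the 15363 annotated piRNA genes (0.508%) are on III, and 14714 are on IV. The sites outnumber the piRNA genes on III, and also on I, II, V and X. Which of these genes lie at a site was not examined.

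Among its top 1539 peaks, replicate 1 held 178 of the 221 combined sites on III and replicate 2 held 161, and 52 sites were in the top of replicate 1 only and 35 in that of replicate 2 only. On the other chromosomes together the counts were 243 and 253. These counts were picked after the values were seen, and whether III differs from the other chromosomes in them was not tested.

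The combined sites reached close to the right end of the chromosome and less close to the left. The first site on III began 131.6 kb from the left end, and the last ended 9.94 kb before the last base of any replicate peak on III.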
